A study of Rattus norvegicus with 11 samples.

Results

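The miRNAs described here are 7 of the large imprinted Dlk1-Dio3 locus of rat chromosome 6, miR-431, miR-433, miR-127, miR-434, miR-136, miR-341 and miR-370. They were taken by name stem, without starred names, from the 340 miRNA names that 2 array designs have in common. RNA came from pancreatic islets, the hormone-secreting cell clusters of the pancreas, of female Sprague Dawley offspring, taken at 13 weeks. The HFD group had fathers fed pellets with 43% fat, and the Control group had fathers fed chow with 9% fat. In both groups the fathers were mated at 15 weeks with chow-fed mothers, the pups were weaned at 3 weeks, and the daughters went through glucose tolerance tests (6 and 12 weeks) and an insulin tolerance test (11 weeks). From each sample 100 ng of total RNA was labelled with Cy3 and put on a 1-colour array. A first array design held 4 HFD and 4 Control arrays, and a second held 1 HFD and 2 Control arrays. Which samples come from littermates, or from the same father, is not given in the sources used here, so the p-values measure the spread between these samples.

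Dlk1-Dio3 is a domain in which the protein-coding genes are read from the paternal chromosome and the noncoding RNAs from the maternal one. Rtl1, a gene derived from a retrotransposon, is transcribed from the paternal copy, and in mouse a maternal transcript on the opposite strand carries miRNAs that pair perfectly with Rtl1 mRNA and guide its cleavage. In human islets miRNAs of the domain are abundant in beta cells and have been reported lower in islets of donors with diabetes.

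By position 5 of the 7 belong to the Rtl1 antisense group and 2 do not. In the RefSeq table for GRCr8 the hairpins of miR-431, miR-433, miR-127, miR-434 and miR-136 lie within the bounds of Rtl1, in that order and on the plus strand, over 4968 bases. The gaps between them are 795, 1003, 1851 and 852 bases. The hairpin of miR-434 also lies within that of Mir3543. A gap of 16398 bases separates the hairpin of miR-341, which lies in no other annotated gene, from that of miR-136, and a further 6580 bases separate it from that of miR-370, which lies inside the uncharacterised gene LOC102555254. All 7 hairpins together span 28121 bases, and the label of Rtl1 antisense miRNAs therefore holds by position for the first 5 alone.

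The mature sequences below, from RefSeq (GRCr8), are shown because their seeds decide which mRNAs each miRNA can pair with and because that of miR-341 is a repeat. Capitals mark the seed, bases 2 to 8. The unstarred array names stand for the arms printed, except that the array's miR-136* is the arm printed for that hairpin, and the unstarred miR-136 is named only.
miR-431 (chr6:134326468-134326488, plus strand): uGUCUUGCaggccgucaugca
miR-433 (chr6:134327421-134327442, plus strand): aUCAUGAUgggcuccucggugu
miR-127 (chr6:134328510-134328531, plus strand): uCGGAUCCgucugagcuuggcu
miR-434 (chr6:134330451-134330472, plus strand): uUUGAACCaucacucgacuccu
miR-136* (chr6:134331383-134331404, plus strand): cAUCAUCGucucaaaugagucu
miR-341 (chr6:134347871-134347891, plus strand): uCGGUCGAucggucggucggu
miR-370 (chr6:134354538-134354559, plus strand): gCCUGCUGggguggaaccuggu
The 7 printed seeds differ from one another, and none is the seed of another of the 724 mature rat miRNAs in the table. The 6 members whose own strand is printed are thus a neighbourhood and not a seed family. The seed of the unstarred miR-136 was not compared. The sequence of miR-341 holds UCGG 4 times, counted without overlap on the strand shown, while miR-433 and miR-127 hold it 1 time each and the other 4 not at all. G and C make up 66.7% of miR-341 and 68.2% of miR-370, against 40.9% to 59.1% of the other 5 printed, miR-136* among them.

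The arrays measured 3 of the 7 on all 11 arrays and miR-370 on 4. Detected means here that the scanner software marked the miRNA as present on that array. miR-127, miR-434 and miR-136 were detected on all 11 arrays, miR-431 and miR-341 on 10, Control 635 being the exception for both, and miR-433 on 7. The 152 miRNAs detected on at least 5 arrays were tested, so that 6 of the 7 entered the fit. Those 6 have the same 2 probes, with 20 spots in all, on both designs, while miR-370 has 4 probes on the first design and other probes on the second. No spot of the 7 was saturated. Levels are given below as scaled signal, the background-subtracted intensity summed over a miRNA's probes after each array was scaled to a common 75th percentile. Values at or under a floor of 10.3 have no order among themselves.

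The libraries as a whole differed in quality, and 1 stood apart on the first design. HFD 653 detected 30.9% of the 340 shared miRNAs, against 40.6% to 46.2% on the other 7 arrays of the first design. Per the file headers its negative control spots had an SD of 11.6 intensity units, against 2.03 to 2.41 on those 7. On the second design Control 635 detected 38.2% of the shared miRNAs, against 47.9% on Control 652 and 54.1% on HFD 640. The 75th percentile of Control 635 before scaling was 1018, against 2362 on Control 652 and 2144 on HFD 640. Negative control SDs on that design were 7.18 to 9.04. The endocrine markers miR-375 and miR-7a summed to a scaled signal of 10583 to 13051 on the HFD arrays and 10097 to 14367 on the Control arrays of the first design. Markers of liver and muscle were detected on no array, and of the 4 neuronal markers 1, miR-128, was detected.

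No miRNA of the group passed the test between daughters of HFD and of Control fathers. With limma and array design as a block, 0 of the 6 passed an adjusted p of 0.05, as did 0% of the 152 tested. At an unadjusted p under 0.05 there was 1 of the 6, miR-431, and 1.97% of all tested were higher in HFD at that level, namely miR-150, miR-296* and miR-431. All 6 fitted differences lay above 0, as did 71.1% of all tested. Scaling to the 75th percentile over all shared miRNAs left 3 of the 6 above 0, and 36 of the 152 tested. Median scaling left 4 of the 6 and 49 of the 152, and quantile normalisation 5 and 48. An RMA-like summary (median polish over quantile-normalised log2 spots) left 4 of the 6 and 46 of the 152. The median difference of the 6 was 0.28 on the log2 scale and that of the 152 was 0.066. Without HFD 653 the median of the 6 was 0.26, and without Control 602 it was 0.14.

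**Figure D1:**
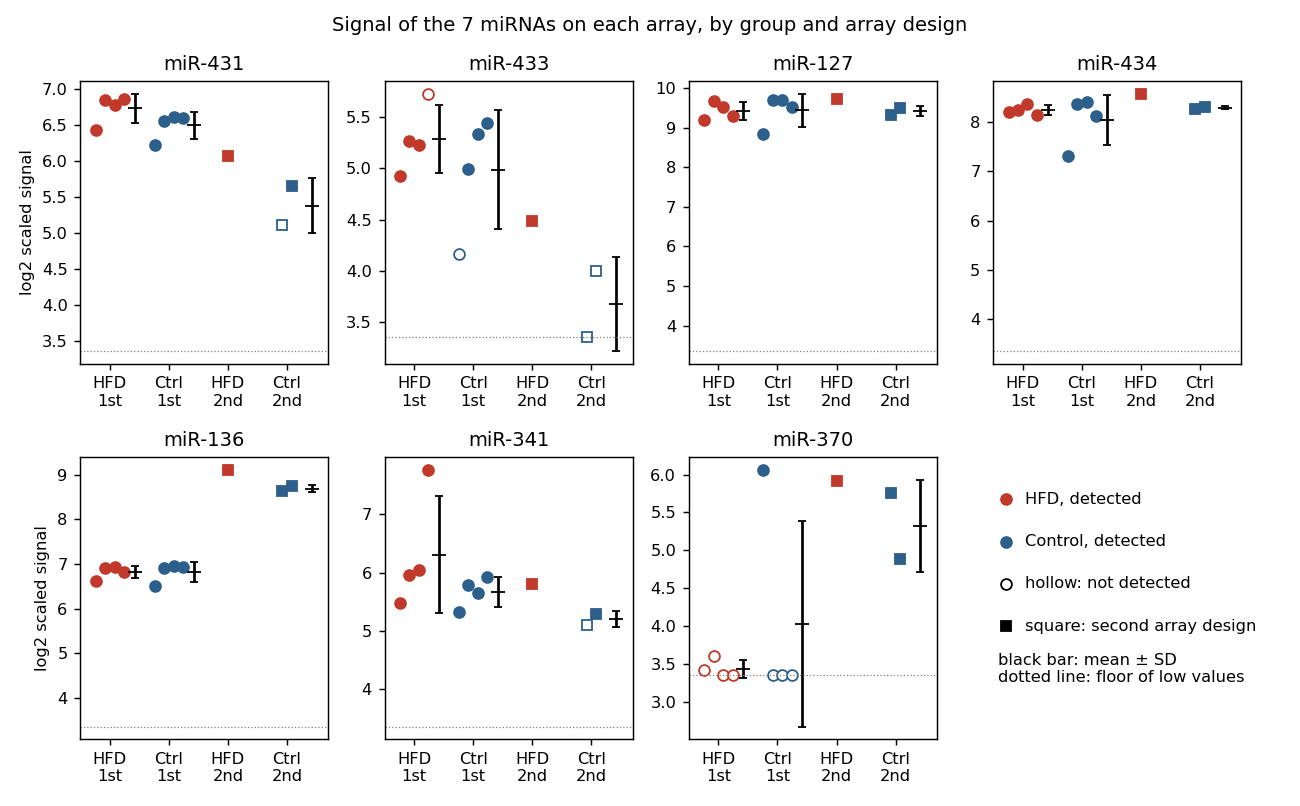
Log2 scaled signal (vertical axes) of the 7 miRNAs on each of the 11 arrays, HFD in red and Control in blue, with the first array design as circles and the second as squares, hollow where not detected. Black bars give mean ± SD of groups with more than 1 array, and the dotted line marks the floor. On the first design the HFD and Control arrays overlap for each of the 7, and HFD 653 stands above the rest for miR-341.

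miR-431, the first of the hairpins within Rtl1 and a miRNA linked in mouse muscle to the stem-cell factor Pax7, had the smallest p of the group. On the first design its scaled signal was 86.1, 115, 110.2 and 116 on HFD arrays and 74.3, 93.7, 98.03 and 96.8 on Control arrays. On the second it was 66.9 on the HFD array, against 34.5 and 50.3 on the Control arrays, the lower of which did not detect it. HFD 607, 644 and 653 lay above all 4 first-design Control arrays, but HFD 603 lay below 3 of them, so the groups overlapped there. The fitted difference was 0.35 ± 0.15 (SE) on the log2 scale, 1.27-fold, with a 95% interval of 0.014 to 0.68 (limma unadjusted p = 0.0427, adjusted p = 0.987). It ranked 2 of 152 by p in this setting. Median scaling gave 0.19, quantile normalisation 0.17, the 75th percentile of all shared names 0.12, normexp background correction 0.12, and the RMA-like summary 0.056. It was 0.15 in the deposited tables. Normexp and the first-design deposited values have 50 added before log2, which shrinks log2 differences of signals this dim. The deposited second-design values are blank where not detected, as for miR-431 on Control 635. No scaling gave 0.42 and the software's total signal 0.59. Under each of these settings, and without Control 602, 0 of the 6 had an unadjusted p under 0.05. With outlier spots kept, the 5th percentile as floor, no detection filter or weighted arrays, 1 of the 6 was under it. Leaving out 1 array at a time gave 0 to 2 of the 6. On the first design the brighter of its 2 probes gave an HFD over Control ratio of 1.17. The other lay at background there, with at most 1 of 10 spots well above it on any array of that design. On the second design that dimmer probe had 10 of 10 spots well above background on HFD 640, 5 on Control 652 and 0 on Control 635.

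miR-433, whose hairpin follows next, was dim, and its fitted difference of 0.43 ± 0.26 (SE) spans 0 (95% interval -0.15 to 1.001, limma adjusted p = 0.987). Its first-design signal was 30.3, 38.4, 37.4 and 52.7 on HFD arrays, of which HFD 653, the highest, did not detect it, and 17.9, 31.7, 40.4 and 43.4 on Control arrays, of which Control 602, the lowest, did not. In the second design the HFD array detected it at 22.4, while the Control arrays read 9.99, under the floor, and 16.04, and neither detected it. It was thus detected on 4 of 5 HFD arrays and 3 of 6 Control arrays. Detection over all 340 shared names also differed between arrays. It was 30.9% on HFD 653, 42.9% on Control 602, 38.2% on Control 635 and 47.9% on Control 652, which missed miR-433. On the arrays that detected miR-433 it was 40.6% to 54.1%. Without Control 602 the difference was 0.25, and with the RMA-like summary it was -0.021.

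miR-127, which in human cells represses the oncogene BCL6, showed the smallest difference of the 6. First-design signals were 588, 824, 741 and 629 on HFD arrays and 458, 835, 843 and 738 on Control arrays, and the 2 groups overlapped over nearly their whole ranges. The second design gave 853 in HFD and 645 and 729 in Control. The fitted difference was 0.065 ± 0.18 (SE), with a 95% interval of -0.33 to 0.46 (limma adjusted p = 0.987). That interval is for the reported scaling, where it leaves out a 1.5-fold difference in either direction. The difference was -0.16 ± 0.23 (SE) with the 75th percentile over all shared miRNAs. In the deposited tables the difference was 0.15 ± 0.31 (SE), and no interval is given for these 2 settings. Within the first design it was -0.019, and within the second 0.31. Its value turned on single arrays: it was -0.072 without Control 602, -0.019 without HFD 640, 0.013 without HFD 607 and 0.030 without Control 635. It was 0.11 without HFD 653, 0.13 without HFD 603, and 0.14 without Control 613 or Control 615.

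The difference of miR-434 rested on 1 Control array. Its first-design signal was 293, 301, 331 and 281 on HFD arrays and 158, 328, 337.3 and 278 on Control arrays. The HFD values lie within the range of 3 Control arrays, and Control 602, at 158, stands below every other array of the design. Second-design values were 379.3 in HFD and 308 and 316 in Control. The fitted difference was 0.21 ± 0.19 (SE; 95% interval -0.20 to 0.63, limma adjusted p = 0.987), and without Control 602 it was 0.037.

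miR-136, the last hairpin within Rtl1, had the smallest spread of the 6 on the first design. First-design signals were 98.8, 120.2, 121.7 and 112 on HFD arrays and 90.3, 119.9, 124.01 and 123 on Control arrays. The highest array of that design read 1.37 times the lowest. The second design read 553 on the HFD array, against 398 and 427 on the Control arrays. The fitted difference was 0.10 ± 0.13 (SE), with a 95% interval of -0.18 to 0.38 (limma adjusted p = 0.987). The first design alone gave -0.0056 and the second 0.43, and the fit gave 0.037 without Control 602 and 0.16 without HFD 603.

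**Figure D2:**
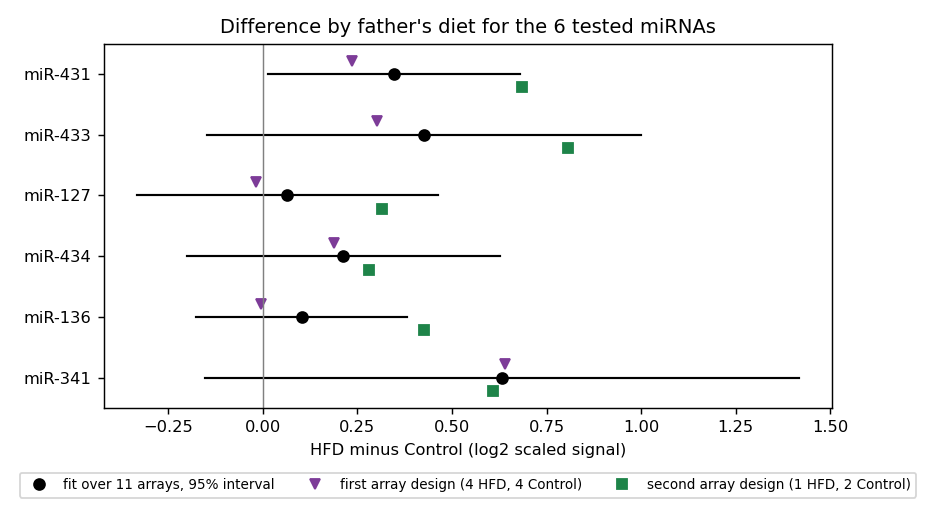
HFD minus Control difference in log2 scaled signal (horizontal axis) for the 6 tested miRNAs. Black points with bars are the fit over 11 arrays with its 95% interval, triangles the first array design and squares the second; the interval of miR-431 alone lies above 0, at 0.014 to 0.68, and those of the other 5 span 0. The fitted values of miR-433, miR-127, miR-434 and miR-136 fall below 0 under at least 1 other scaling or summary.

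Of the 2 miRNAs beyond Rtl1, miR-341, a rodent miRNA, had the largest fitted difference of the 6, and its size rested on 1 array. First-design signals were 44.4, 62.2, 65.6 and 218 on HFD arrays and 40.1, 54.9, 50.1 and 60.6 on Control arrays. HFD 653, at 218, was 5.43 times the lowest array of the design, and the other 3 HFD arrays lay among or just above the Control arrays. The second design read 56.0 on the HFD array, against 34.4, not detected, and 39.2 on the Control arrays. The fitted difference was 0.63 ± 0.35 (SE), 1.55-fold, with a 95% interval of -0.15 to 1.42 (limma adjusted p = 0.987), and without HFD 653 it was 0.28 ± 0.16 (SE).

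The spots of miR-341 on HFD 653 differed widely from one another. Its first probe read 21.5 to 229 over 10 spots with a median of 47.6, and its second 66.7 to 246 with a median of 91.7, and the software marked 4 of 10 spots of each as well above background. On the other 7 arrays the first probe reached at most 21.1 and the second at most 56.0. The coefficient of variation over the spots of the brighter probe was 47.2% on HFD 653 and 8.21% to 22.0% on those 7. The second probe, with all 10 spots well above background on those 7, gave an HFD over Control ratio of 1.56, or 1.07 without HFD 653. The first lay near background on the Control arrays, where at most 2 of 10 spots were well above it, and no ratio is given for it. The median over spots in place of the mean put that array at 135.8 and the fitted difference at 0.48. What made the spots of this array uneven was not tested.

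**Figure D3:**
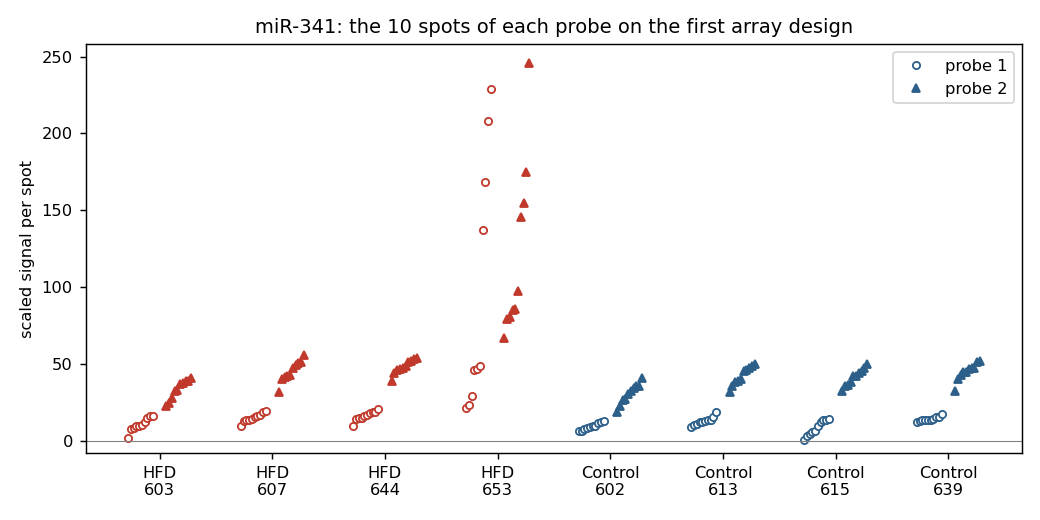
Scaled signal (vertical axis) of each of the 10 spots of the 2 miR-341 probes on the 8 arrays of the first design, HFD arrays in red at the left and Control arrays in blue at the right, probe 1 as hollow circles and probe 2 as triangles, sorted within a probe. On HFD 653 the spots run from 21.5 to 246, while no spot of the other 7 arrays exceeds 56.0.

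miR-370, which in human liver cells represses the fatty-acid oxidation enzyme CPT1A, could not be compared at the usual filter. On the first design the HFD arrays read 10.8, 12.2, -5.74 and -105 and none detected it, while Control 602 detected it at 67.0 and the other Control arrays read 3.72, -6.40 and -9.02. Negative values arise where the spots are dimmer than their background. With the other probes of the second design, all 3 arrays detected it, at 60.1 on the HFD array and at 53.9 and 29.7 on the Control arrays. With all 340 shared miRNAs tested in place of 152, the difference was -0.30 ± 0.54 (SE; limma adjusted p = 1).

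The comparison within each array design showed no separation of the groups on the first. There, 0 of the 6 had all 4 HFD arrays above all 4 Control arrays, as did 0.658% of all tested, which is miR-150 alone, and 0 of the 6 passed the test on that design alone (limma adjusted p = 1 for each). At an unadjusted p under 0.05 there were also 0 of the 6, against 1.32% of all tested, which are miR-150 and miR-210. On the second design the lone HFD array lay above both Control arrays for 6 of 6, as it did for 62.5% of all tested. The difference by diet did not depend detectably on the design: 0 of the 6 had an interaction past the threshold (smallest limma adjusted p = 0.996), where 0% of all tested had one and 0.658% at an unadjusted p under 0.05, and the fit takes the spread of the lone HFD array to be that of the rest. The interaction terms ran from -0.031 ± 0.86 for miR-341 to 0.51 ± 0.61 for miR-433 (SE).

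Levels of the same probes shifted between the 2 designs, in opposite directions for hairpins within Rtl1. In Control arrays the second design minus the first was 1.86 on the log2 scale for miR-136, 3.64-fold, and 10 of the 148 tested miRNAs with the same probes on both designs had a larger offset. The offset was -1.12 for miR-431 and -1.30 for miR-433, and 93.2% and 97.3% of the 148 lay above these 2. No Control array of the second design detected miR-433, and Control 635 lay under the floor for it, so the floor limits that offset. Control 635 did not detect miR-431 either. miR-127, miR-434 and miR-341 had -0.026, 0.24 and -0.47, beside a median of 0.23 over the 148. The starred strand of the miR-136 hairpin moved the same way as its partner, by 2.88, with 2 of the 148 above it. It was faint on the first design. The software's total signal was 0.97 on Control 602, which did not detect it, and 9.89 to 13.7 on the other Control arrays. The floor may limit this offset too. Software version goes with array design, and slide and scan are expected to, so these cannot be told apart here. The Control samples of the 2 designs are also different samples, so the offsets hold differences between samples too.

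The 5 miRNAs within Rtl1 varied together from array to array. After centring each miRNA within its array design, the 10 pairs among them had Pearson r of 0.59 to 0.90 over the 11 arrays with a median of 0.79. Without Control 602 they had 0.28 to 0.89. The 5 pairs with miR-341 had 0.14 to 0.70, or 0.59 to 0.85 without HFD 653 and -0.16 to 0.69 without Control 602. These values are descriptions: the points share their arrays and each array's scaling factor.

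On the first design Control 602 was lowest for all of these 5 and for miR-341, and HFD 603 was next lowest for 5 of the 6, all but miR-434. The mean of the 6 centred values was -0.63 on Control 602 and -0.21 on HFD 603, and 0.025 to 0.41 on the other 6 arrays of the design. The same 2 arrays carried the most acinar miRNA and the lowest endocrine and epithelial marker sums of that design. The endocrine sum was 10583 on HFD 603 and 10097 on Control 602, against 11633 to 14367 on the other 6. The epithelial sum, over miR-141 and 3 miR-200 family members, was 8751 on HFD 603 and 9000.4 on Control 602, against 9478 to 11543. Single markers did not all follow these sums. miR-7a and miR-200a were lowest on the 2 arrays, but miR-200b was highest on Control 602 (570). miR-375 read 3911 on Control 602 and 3778 on Control 613. The neuronal sum, which on this design is miR-128 alone, was 41.0 on HFD 603 and 34.3 on Control 602, against 44.4 to 49.4. The fibroblast and smooth muscle sum was 595 on HFD 603 and 410 on Control 602, against 263 to 561. Acinar cells, which make digestive enzymes, surround islets, and 2 of their 3 listed markers, miR-216a and miR-217, are on both designs. Their summed signal was 665.9, 302, 106 and 256 on HFD 603, 607, 644 and 653 and 623, 427, 88.7 and 21.0 on Control 602, 613, 615 and 639. miR-217 was under the floor throughout the first design, although marked as detected on Control 602, so that these sums are nearly all miR-216a. On the second design the sums were 438 on the HFD array and 459 and 368.7 on the Control arrays. The leukocyte markers, of which 3 of 4 were detected on any array, summed to 33.6 to 356 on HFD arrays, the highest being HFD 603, and 33.1 to 40.4 on Control arrays of the first design. Fewer cells of a type and less RNA per cell cannot be told apart in such bulk samples, and the part of other cells in the group difference was not tested.

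**Figure D4:**
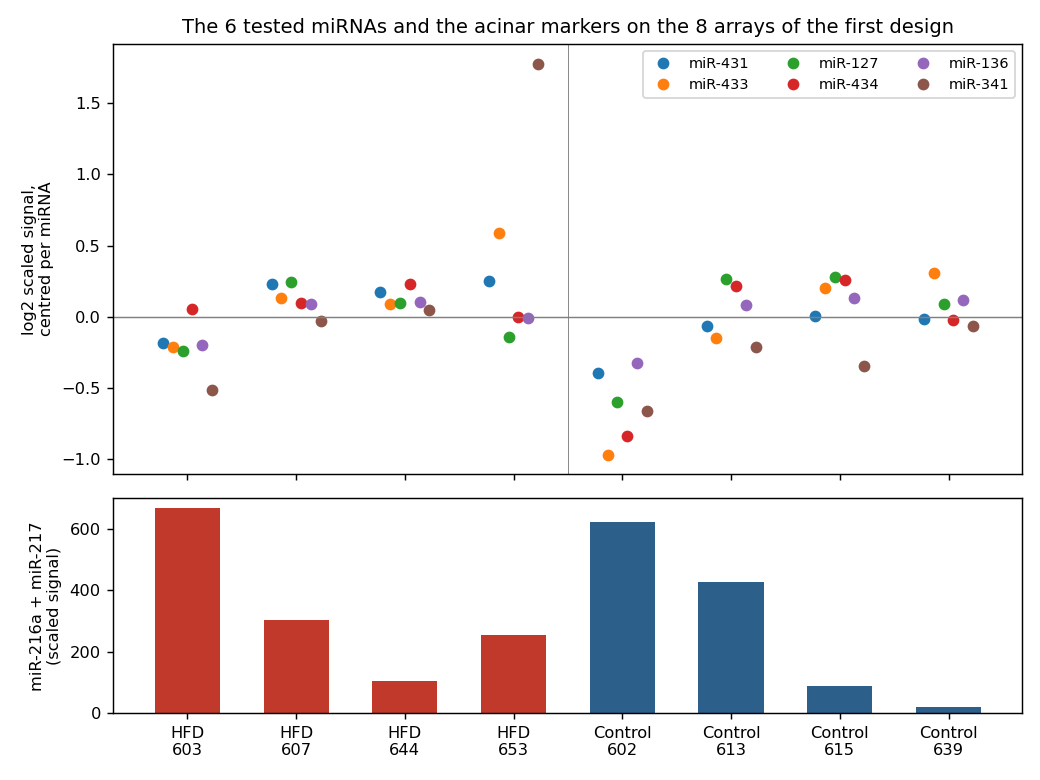
Upper panel, log2 scaled signal of the 6 tested miRNAs centred per miRNA (vertical axis) on the 8 arrays of the first design, 4 HFD at the left and 4 Control at the right. Lower panel, summed scaled signal of the acinar miRNAs on the same arrays, highest on HFD 603 (665.9) and Control 602 (623), the 2 arrays on which the mean of the 6 is lowest.

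Of the 5 miRNAs whose profiles most resembled the mean of the 6, all but 1 came from the same locus. Over the 11 arrays and 146 candidates, the 5 most alike were miR-337 (Pearson r = 0.92), miR-369-5p (0.92), miR-410 (0.90), miR-329 (0.89) and miR-128 (0.88). All but miR-128, the miRNA that makes up the neuronal sum above, are on the list of other Dlk1-Dio3 miRNAs. Among the 20 most alike, 8 were from that list and 12 were not. The 14 tested members of that list had a median r of 0.81, from -0.56 to 0.92, and the other 132 candidates a median of 0.15, from -0.72 to 0.88. Without Control 602 the 5 had 0.78 to 0.86, and without HFD 653 they had 0.87 to 0.94. The fitted differences of the 5 were 0.42, 0.24, 0.18, 0.33 and 0.14, each with a limma adjusted p of 0.987.

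The rest of the locus also held no miRNA that passed the test by diet. Of its 36 listed names on both designs 14 were tested, 10 lay above 0 and 4 below, with a median of 0.17, and 0 passed the test (0% of all tested), with 0 at an unadjusted p under 0.05. The 2 highest were miR-382 at 0.58 ± 0.27 and miR-337 at 0.42 ± 0.29 (SE), and the 2 lowest miR-379 at -0.18 ± 0.31 and miR-376c at -0.13 ± 0.27 (SE). The highest, miR-382, had a 95% interval of -0.0099 to 1.17.

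The spread within groups sets what these arrays could show. On the first design the pooled SD within groups was 0.18 for miR-136, 0.20 for miR-431, 0.33 for miR-127, 0.37 for miR-434, 0.47 for miR-433 and 0.73 for miR-341 on the log2 scale. The median of the 6, 0.35, was near that of all 152, 0.33. The fitted differences of miR-433, miR-127, miR-434, miR-136 and miR-341 were smaller than that spread, and that of miR-431 was larger.

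The size of each difference depended on how arrays were brought to a common scale. The median of all 152 moved by -0.21 when arrays were scaled to the 75th percentile over all shared miRNAs, by -0.15 with median scaling and by -0.14 with quantile normalisation. The median of the 6 stood above that of all tested by 0.21 in the reported scaling, and by 0.20, 0.21 and 0.12 under those 3. It stood above by 0.084 with normexp and with the RMA-like summary. Without Control 602 it stood above by 0.098, and without any other single array by 0.17 to 0.26. With no scaling the median of the 6 stood above by 0.20. In the deposited tables, which are not scaled, it stood above by 0.048, but these differ in more than scaling. They add 50 to the first-design signal before log2 and leave second-design values blank where not detected. miR-431 and miR-341 kept a difference above 0 under all 29 alternatives run for each, from 0.056 to 0.69 and from 0.12 to 0.88, and the smallest adjusted p of any of the 6 under any alternative was 0.732.

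**Figure D5:**
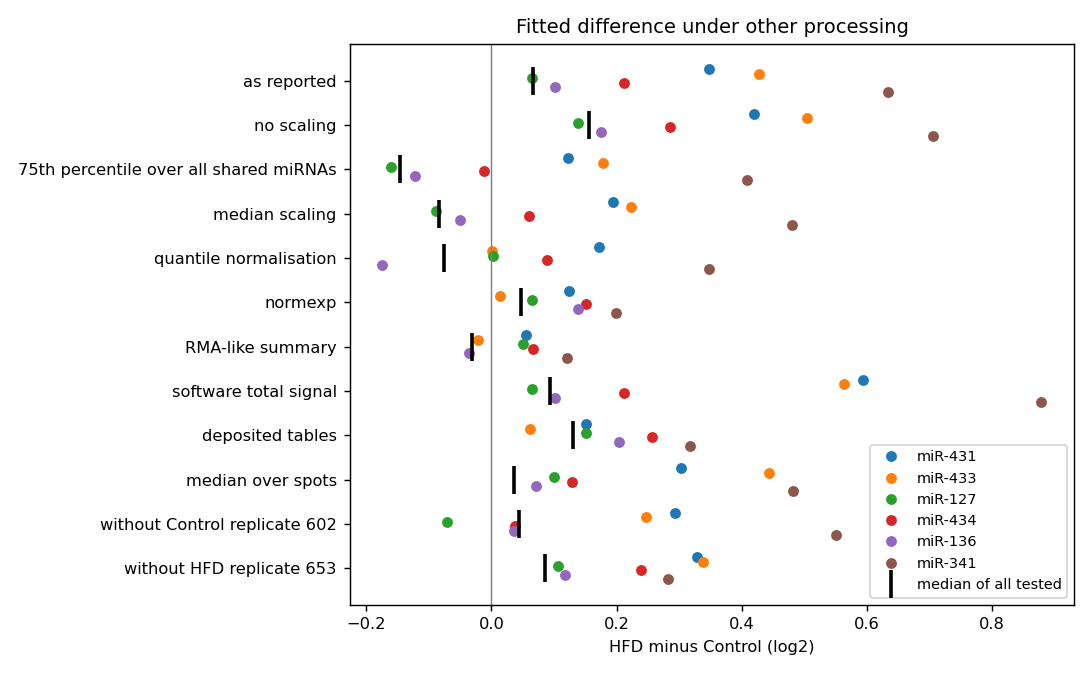
HFD minus Control difference (log2, horizontal axis) of the 6 tested miRNAs, one colour each, under 12 ways of processing the arrays (rows), with the median of all tested miRNAs as a black tick. The tick moves between -0.15 and 0.16, and miR-341 lies furthest to the right in each row except without HFD 653.

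The other strands of the same hairpins were mostly faint. The starred name of miR-136 is on both designs, and the software's total signal, which is not scaled, was 222.9 on the HFD array and 81.7 and 200.1 on the Control arrays of the second design. On the first design it was at most 16.1 on HFD arrays and 13.7 on Control arrays. Its fitted difference was -0.080 ± 0.30 (SE; limma adjusted p = 0.987). Among names on the second design alone, the starred strand of miR-127 was detected on the HFD array (20.3) and on no Control array, and that of miR-434 on the HFD array (18.5) and on Control 652 (15.1). That HFD array detected 54.1% of the shared names, against 38.2% on Control 635 and 47.9% on Control 652. The starred strands of miR-370 and miR-433 were detected on none of the 3 arrays.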

How the data were processed

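Islet RNA of 11 samples was measured on Agilent miRNA arrays with 1 colour. Per the file headers, the deposited intensity files came from Agilent Feature Extraction 10.5.1.1 (first design, 350 miRNAs) and 10.7.3.1 (second design, 677), background-subtracted within each array. The deposited tables hold log2 values: on the first design log2 of the software's total intensity plus 50, on the second log2 of the total intensity, blank where not detected, with no centring and no ratio. Their column medians on the first design were 5.69 (HFD 603), 5.73 (HFD 607), 5.71 (HFD 644), 5.83 (HFD 653), 5.70 (Control 602), 5.70 (Control 613), 5.68 (Control 615) and 5.69 (Control 639). Those on the second were 6.52 (HFD 640), 6.59 (Control 635) and 6.89 (Control 652). The tools named in the submitters' processing notes, RMA and Partek, have no stated role.

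The processed intensity was averaged over spots without an outlier flag, summed over probes and scaled by the 75th percentile of the 85 miRNAs that every array detected. The 1st percentile of detected values, 10.3, served as the floor before taking log2. Differences, HFD minus Control, were fitted with limma 3.58.1 (R 4.3.3), 2-sided, with array design as a block and Benjamini-Hochberg adjustment over 152 miRNAs at 0.05. The number of arrays limits the precision. The fit was tested on simulated data. Alternatives covered scaling, background, summary, floor, filter, block and left-out arrays. Normexp (offset 50) used the median spot signal, since the files used here hold no mean signal. Coordinates are from RefSeq; the array headers name an older build and no coordinates were taken from them. Named are the 7, the 5 miRNAs of most similar profile, the 2 highest and 2 lowest of the locus list, and the few miRNAs behind a count of up to 5, which were chosen after their values were seen. The 7 and the lists were chosen with earlier results of these data known.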

Additional observations from a re-analysis of the deposited data

Results flagged for a closer look

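On the first array design the gap between an extreme array and its nearest neighbour was set over the range of its group of 4, and 4 of 16 such groups were past Dixon's 95% value. Chance flags about 1 in 20 independent groups, but these share arrays and the median profile is built from the others, so the number of flags is not read against it. In Control, array 602 was low for miR-431 (0.836) and for miR-136 (0.893). It was high for miR-370 (1), a value fixed by the other 3 Control arrays lying at the floor. In HFD, the median of the 6 centred values was low on array 603 (0.929). In the starred strands, which are not among the 7, the software's total signal of miR-136* reached 16.1 on HFD 607 of the first design and 222.9 on HFD 640 of the second, each above the highest Control array of its design. The starred strands of miR-127 (20.3) and miR-434 (18.5) on HFD 640 also read above both Control arrays.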

How the results depend on the processing

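No miRNA of the group passed the threshold under any alternative run, and the count on the first design alone and the count of interactions also stayed at 0. Over all tested miRNAs the count was 1 with no scaling, miR-150, and 0 otherwise. miR-433 was -0.021 with the RMA-like summary. With the 75th percentile taken over all shared names, miR-127 was -0.16; it was -0.088 with median scaling, -0.019 on the first design alone and without HFD 640, -0.072 without Control 602 and -0.026 without Control 602 and HFD 653, a pair chosen after seeing the data, as was the median over spots. miR-434 was -0.013 with that percentile. miR-136 was -0.12 with that percentile, -0.050 with median scaling, -0.17 under quantile normalisation, -0.036 with the RMA-like summary, -0.17 with no block for array design and -0.0056 on the first design alone and without HFD 640. Leaving out 1 array at a time gave 0.23 to 0.43 for miR-431, 0.25 to 0.55 for miR-433, -0.072 to 0.14 for miR-127, 0.037 to 0.30 for miR-434, -0.0056 to 0.16 for miR-136, 0.28 to 0.83 for miR-341, and 0.14, without Control 602, to 0.34 for the median of the 6. No paired analysis was possible because the 2 groups share no replicate number. miR-433 and miR-370 lie near background.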
